A study of Mesocricetus auratus with 36 samples.

Results

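Molecular chaperones are proteins that bind unfolded or partly folded proteins and help them reach or keep their working shape. HSP70 proteins do this in cycles of ATP use, J-proteins (the DNAJ families) bring substrates to HSP70 and start its ATPase, and nucleotide exchange factors, among them HSP110 and most BAG proteins, reset it. HSP90 finishes the folding of many signalling proteins, the ring-shaped CCT complex folds actin and tubulin, and small heat shock proteins hold unfolded proteins without using ATP. Many of these genes are controlled by heat shock factor 1, which is activated by heat and other stresses that unfold proteins, and a hibernator passes repeatedly through deep cooling and rewarming.

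The genes described here are the DNAJ, HSP, CCT and BAG genes of the golden hamster, chosen by symbol, together with Tcp1, Hsf1, Ahsa1 and Stip1. Hspb1 was left out. Of 32340 genes in the tables, 88 had a matching symbol, and the 79 with a mean of at least 1 CPM (counts-per-million, the count scaled to the library total) over 36 libraries were kept. Dnajb3 was the lowest gene kept, at a mean of 1.13 CPM, and Hspa12b the highest gene left out, at 0.54 CPM. The others left out were Cct8l2, Dnajb7, Dnajb8, Dnajc22, Dnajc5b, Dnajc5g, Hspb3 and Hspb9. All 79 passed the filter on low counts and were tested. The inducible HSP70 genes Hspa1a and Hspa1b, and Hspe1, were not matched by symbol and are not analysed here.

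The libraries came from the ependymal layer around the third ventricle of the hypothalamus, a tissue rich in tanycytes, cut out by laser capture from male hamsters. There were 6 groups of 6 libraries, 1 brain each. Long photoperiod animals had 14 h of light at 22 °C and are labelled 8 months old, although some were taken at the start of the experiment and some at its end. All other animals had 10 h of light at 8 °C. Pre-hibernation animals were sampled after 4 weeks at 4 months of age, and late pre-hibernation animals after 8 to 12 weeks at 6 months, before any torpor. Interbout euthermia animals (6 months) were warm and 23 h into the interval between bouts after 3 cycles of torpor and arousal, and torpor animals (6 months) had been torpid for 13 h. Refractory animals (8 months) had stopped hibernating after about 20 weeks and were at least 2 weeks past the last bout. Day length, ambient temperature and age all differ between long photoperiod and pre-hibernation and cannot be told apart.

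Library totals ran from 5161108 to 28541745 counts. In pre-hibernation 5, interbout euthermia 6 and refractory 4, 9.28%, 7.21% and 41.8% of the counts fell in ribosomal RNA genes, against at most 0.826% in the other 33 libraries, and refractory 4 was also the shallowest. These 3 are called rRNA-rich below. Many results are given with and without them, but not all. Group means, SDs and ranges include them unless stated. The 79 chaperone genes held between 0.408% and 2.03% of a library's counts. All 12 tanycyte markers and all 10 ependymal cilia markers listed were measured, at summed levels of 1474 to 3956 and 3100 to 6950 CPM per library. Levels below are CPM scaled with TMM factors. In captured tissue, fewer cells of a type and less RNA per cell cannot be told apart.

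Most of the 79 genes kept nearly the same level in all 6 groups. Over all 17926 genes, 14.6% passed a test for any difference between the 6 groups (edgeR quasi-likelihood F test, adjusted p under 0.05), and 9 of the 79 chaperone genes passed it, or 11.4%, a share below that background. The 9 were Dnajb5, Hspb6, Hspb2, Hspb7, Dnajc17, Dnajc4, Dnajb14, Bag5 and Dnajc18. Without the rRNA-rich libraries 26 passed, or 32.9%, a share above the background of 27.7% in that fit. The ratio of the highest to the lowest group mean had a median of 1.28 over the 79 genes and 1.44 over all genes tested. Without the rRNA-rich libraries these medians were 1.22 and 1.38. The 79 genes were kept at a mean of at least 1 CPM, a floor not set for all genes tested. The ratios were not compared between genes of like level.

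**Figure D1:**
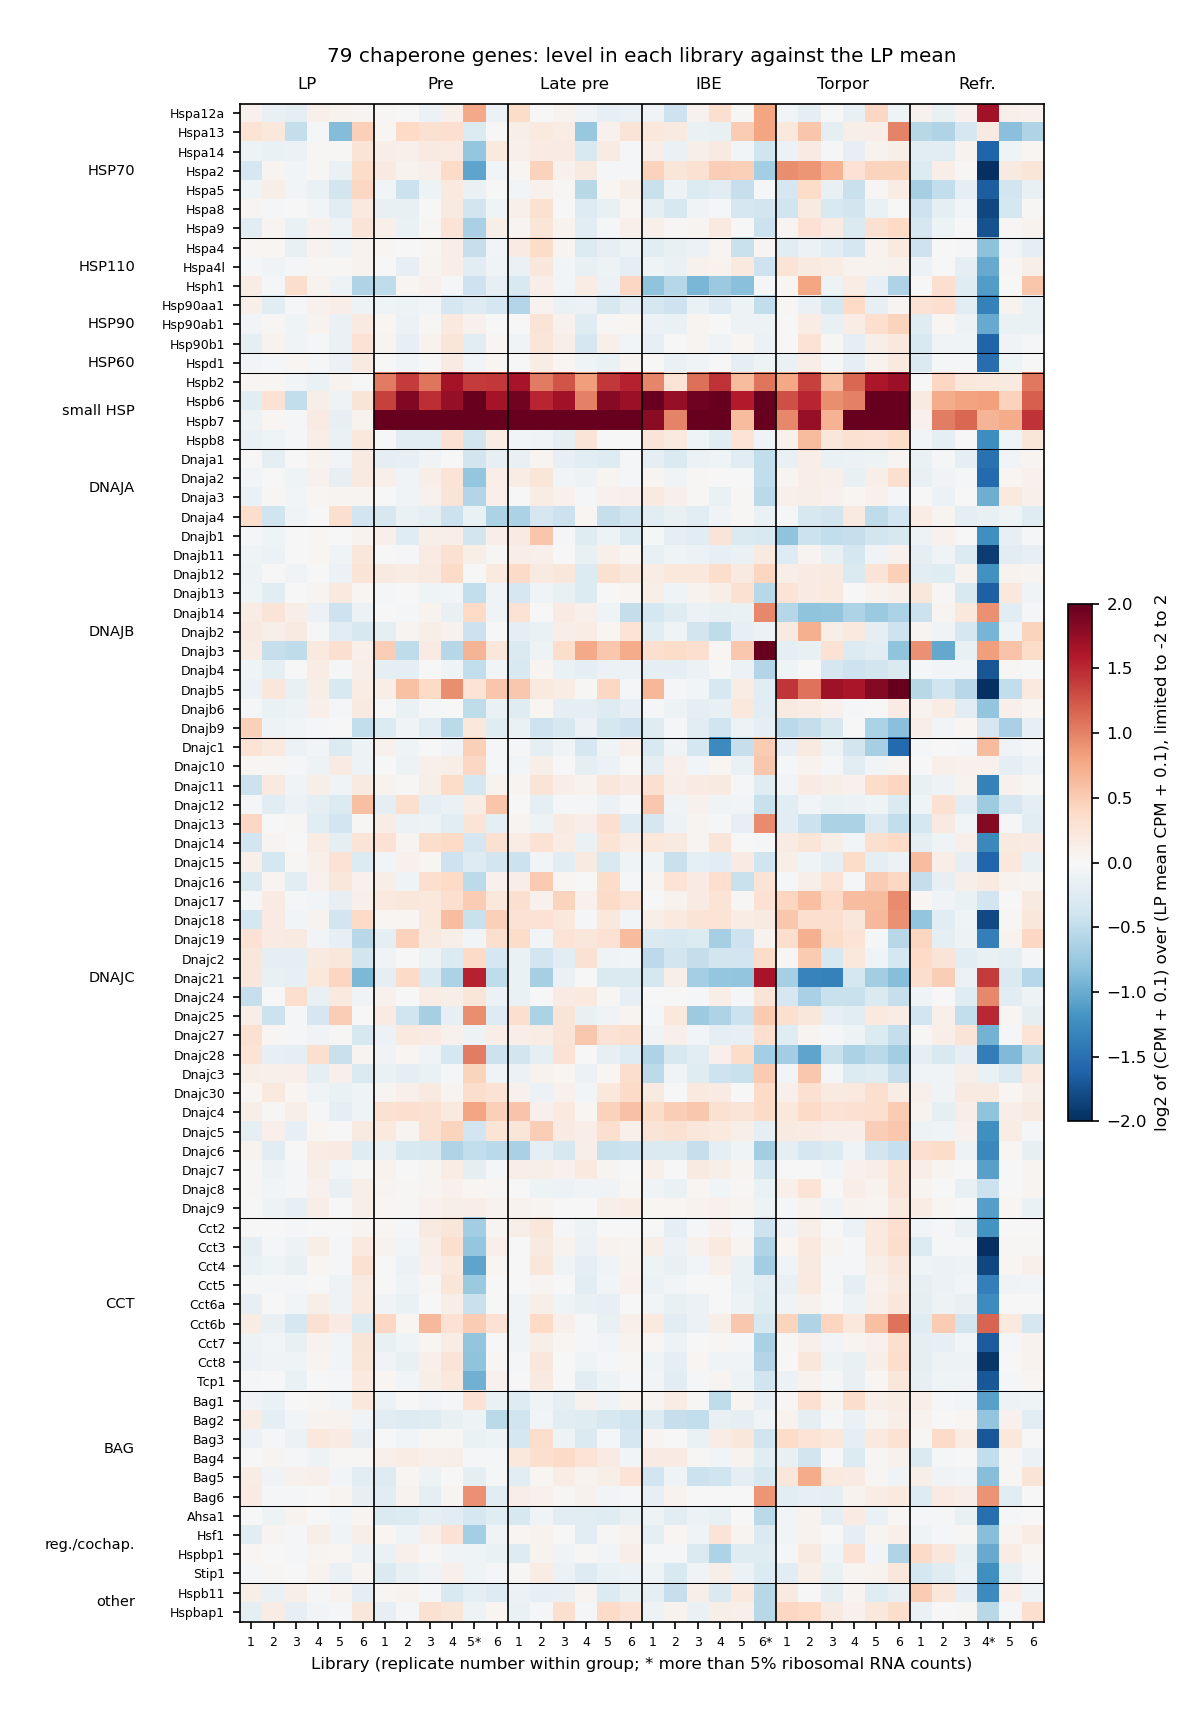
Level of each of the 79 chaperone genes (rows, by family) in each of the 36 libraries (columns, by group; LP is long photoperiod, IBE interbout euthermia), as log2 of CPM over the long photoperiod mean with 0.1 CPM added to each. The dark red band is Hspb2, Hspb6 and Hspb7, the red block in torpor is Dnajb5, and the 3 libraries marked with an asterisk stand apart from their groups, refractory 4 most widely.

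Between long photoperiod and pre-hibernation the genes that changed were small heat shock proteins. Hspb2, Hspb6 and Hspb7, holdases best known from heart and skeletal muscle, rose in pre-hibernation against long photoperiod, and they were the only 3 of the 79 genes to pass in that comparison (3.8%, against 2.29% of all genes tested). Hspb8, which works with Bag3 in clearing damaged proteins, had a log2 fold change of -0.04 ± 0.15 (SE, adjusted p = 0.964).

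Hspb7 ran from 6.04 to 7.63 CPM in long photoperiod (median 6.80) and from 38.4 to 50.3 CPM in pre-hibernation (median 40.7). The groups did not overlap, and the lowest pre-hibernation animal was far above the highest long photoperiod animal. This was a log2 fold change of 2.64 ± 0.35 (SE, adjusted p = 1.07e-05), a 6.22-fold difference, and 2.65 without the rRNA-rich libraries.

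Hspb6 (Hsp20) ran from 19.7 to 33.8 CPM in long photoperiod (median 27.9) and from 71.7 to 112.8 CPM in pre-hibernation (median 90.0), again without overlap. Its log2 fold change was 1.70 ± 0.20 (SE, adjusted p = 1.07e-06), and 1.62 without the rRNA-rich libraries. Hspb2 ran from 41.5 to 48.1 CPM in long photoperiod (median 46.6) and from 93.9 to 145.1 CPM in pre-hibernation (median 120.8). The log2 fold change of Hspb2 was 1.35 ± 0.19 (SE, adjusted p = 1.58e-05), and 1.33 without those libraries. No call among these 3 genes was lost when any of the 12 libraries was left out in turn.

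None of the 3 changed between 4 weeks and 8 to 12 weeks: the log2 fold changes lay between -0.06 and -0.01, with adjusted p = 1 for each. During the hibernation season they spread out. In interbout euthermia Hspb7 ran from 10.6 to 44.2 CPM (median 27.3) and in torpor from 10.97 to 80.5 CPM, so the lowest animals lay close to the long photoperiod range, while torpor 6 exceeded every pre-hibernation animal. Its log2 fold change in interbout euthermia against late pre-hibernation was -0.69 ± 0.33 (SE, adjusted p = 0.786). Hspb6 was highest on average in interbout euthermia, at 114.4 ± 27.4 CPM (SD, n = 6), and stood at 80.7 ± 27.4 CPM in torpor, a log2 fold change of -0.50 ± 0.19 (SE, adjusted p = 0.152). Hspb2 ran from 54.9 to 124.7 CPM in interbout euthermia and from 70.2 to 149.5 CPM in torpor, and its log2 fold change between them was 0.30 ± 0.18 (SE, adjusted p = 0.478).

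The same torpor animals were at both ends for all 3 genes: replicate 6 was the highest and replicate 3 the lowest for Hspb2, Hspb6 and Hspb7. In the refractory group replicate 6 was the highest and replicate 1 the lowest for all 3. The summed level of the 6 pituitary markers measured ran the other way in torpor, lowest in replicate 6 at 76.7 CPM and highest in replicate 3 at 178.4 CPM. Astrocyte markers had the same ends, at 2129 and 2875 CPM. Ependymal cilia, microglia, and endothelial and mural markers were also lowest in torpor 6, but highest in torpor 1 or 4. Tanycyte markers were highest in torpor 2 and lowest in torpor 4. In the refractory group the pituitary sum was highest in replicate 3 at 1741 CPM and lowest in replicate 5 at 90.1 CPM. There the tanycyte markers had the same ends as the 3 genes, highest in replicate 6 at 3277 CPM and lowest in replicate 1 at 1910 CPM. Ependymal cilia, neuron, oligodendrocyte, microglia, and endothelial and mural markers were highest in refractory 1. The part of the markers in the levels of the 3 genes was not tested.

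In the refractory group only Hspb6 among the 3 fell beyond the spread against interbout euthermia. It ran from 31.4 to 63.7 CPM (median 47.2), all below the lowest interbout euthermia animal at 83.2 CPM. Its log2 fold change was -1.31 ± 0.20 (SE, adjusted p = 0.000664), and -1.22 without the rRNA-rich libraries. For Hspb7 it was -0.997 ± 0.34 (SE, adjusted p = 0.0889) and for Hspb2 -0.57 ± 0.19 (SE, adjusted p = 0.0745), so neither passed. In the same comparison 3 of 6 pituitary markers were higher in the refractory group, where their summed level ran from 90.1 to 1741 CPM against 88.5 to 198.0 CPM in interbout euthermia, and 2 of 12 tanycyte markers were lower. Their part in the fall of Hspb6 was not tested. Whether these falls differ between the 3 genes was not tested. Refractory levels still lay above long photoperiod on average, by 0.73 ± 0.19 for Hspb6 (log2, SE, adjusted p = 0.0548), 0.94 ± 0.34 for Hspb7 (adjusted p = 0.201) and 0.39 ± 0.19 for Hspb2 (adjusted p = 0.364), and no such difference passed.

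**Figure D2:**
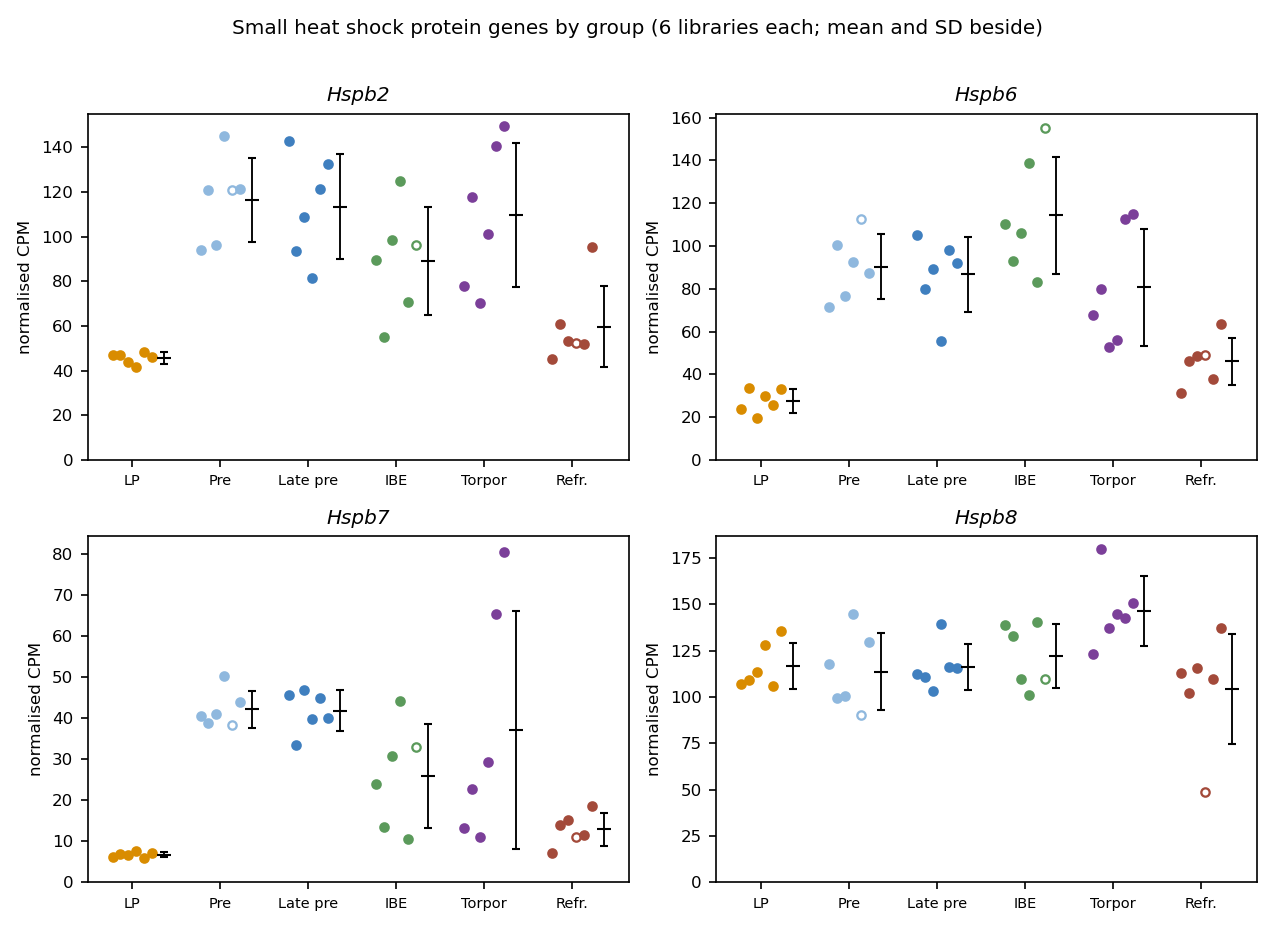
Level of Hspb2, Hspb6, Hspb7 and Hspb8 (CPM scaled with TMM factors) in every library, by group, with the group mean and SD beside the 6 points; open circles are the rRNA-rich libraries. The pre-hibernation points of Hspb2, Hspb6 and Hspb7 lie wholly above the long photoperiod points, the interbout euthermia and torpor points are widely spread, and Hspb8 shows no such step.

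Hspb2 lies head to head with Cryab, another small heat shock protein gene: the annotated starts are 90 bp apart on opposite strands, and no exons overlap. Cryab averaged 297.5 ± 44.9 CPM in long photoperiod, 1323 ± 334 CPM in pre-hibernation and 367.1 ± 111.6 CPM in the refractory group (SD, n = 6 each), and it passed against long photoperiod in pre-hibernation with a log2 fold change of 2.15 ± 0.24 (SE, adjusted p = 1.07e-06). Head-to-head neighbours within 1000 bp were found for 24 of the 79 chaperone genes (30.4%), against 16.7% of all genes tested. Pituitary markers moved in the opposite direction between the same groups, with 2 of 6 lower in pre-hibernation and 4 not called. Their summed level ran from 154.5 to 2352 CPM in long photoperiod and from 72.9 to 196.9 CPM in pre-hibernation. Their part in the small heat shock protein result was not tested.

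The other 76 chaperone genes did not pass between pre-hibernation and long photoperiod. In all, 75 of the 79 had log2 fold changes within 0.5 of 0, and the median was 0.002, against 0.014 over all genes tested. The libraries of the 2 groups did not overlap for 6 of the 79 genes, while 3.52% of all genes tested had no overlap. Beside the 3 small heat shock protein genes these were Dnajc4, Dnajc17 and Ahsa1. Dnajc4 averaged 19.8 ± 1.6 CPM in long photoperiod and 26.4 ± 4.1 CPM in pre-hibernation (SD, n = 6), a log2 fold change of 0.41 ± 0.12 (SE, adjusted p = 0.0615). Ahsa1, the activator of the HSP90 ATPase, averaged 188.5 ± 8.9 and 157.3 ± 5.5 CPM (SD, n = 6), a log2 fold change of -0.26 ± 0.14 (SE, adjusted p = 0.442). Without the rRNA-rich libraries Ahsa1 passed at -0.26 ± 0.06 (SE, adjusted p = 0.0045) and Dnajc4 at 0.32 ± 0.10 (adjusted p = 0.0481). In that fit Dnajc6 (auxilin, which strips clathrin from vesicles) also passed at -0.38 ± 0.11 (adjusted p = 0.035) and Bag2 at -0.29 ± 0.09 (adjusted p = 0.0348), and 6.37% of all genes did. With all libraries Dnajc6 had an adjusted p = 0.269 and Bag2 of 0.319.

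Late pre-hibernation against pre-hibernation gave 0 chaperone genes with edgeR at adjusted p under 0.05, beside a background of 0% of all genes tested. At an unadjusted p under 0.05 there were also 0, beside 4.12% of all genes, and there were 0 with DESeq2 (0.0223% of all genes) and 0 with limma voom (0.0558%). Interbout euthermia against late pre-hibernation also gave 0 with edgeR, on a background of 0%. At an unadjusted p under 0.05 there were 6 of 79, beside 6.16% of all genes, with 0 for DESeq2 (0.179% of all genes) and 5 for limma voom (3.07%). Without the rRNA-rich libraries 2 genes were lower in interbout euthermia: Hsph1 at -0.82 ± 0.18 (log2, SE, adjusted p = 0.0249) and Dnajc19, part of the mitochondrial protein import motor, at -0.69 ± 0.17 (adjusted p = 0.0419), and 0.855% of all genes passed. When late pre-hibernation 4, whose summed neuron markers were the highest of its group at 939.0 CPM (group median 508.0), was left out as well, 1 gene passed. No share of all genes is given for that fit, so this count does not show whether the chaperone genes differed from the rest.

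Torpor against interbout euthermia compares cold with warm animals of the same age and season. In torpor, Dnajb5, Hsph1, Bag5 and Dnajc17 were higher and Dnajb14 and Dnajc24 were lower, so that 6 of the 79 genes passed (7.59%, against 4.06% of all genes tested). Dnajb5 had by far the largest difference. The same torpor libraries enter the comparison with late pre-hibernation, in which 6 genes also passed, against 4.45% of all genes tested. There Dnajb5 and Dnajc17 were higher, and Dnajb14, Dnajb1, Dnajc27 and Bag4 were lower.

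Dnajb5 is a cytosolic J-protein of the same class as Dnajb1 and Dnajb4, the standard partners of HSP70 in the cytosol. It ran from 24.8 to 62.2 CPM in torpor (median 37.3), from 9.27 to 18.6 CPM in interbout euthermia (median 11.3) and from 11.48 to 17.1 CPM in late pre-hibernation (median 13.1). Every torpor animal lay above every animal of these warm groups, and the highest value of any other group was 22.3 CPM, in pre-hibernation 4. Against interbout euthermia the log2 fold change was 1.67 ± 0.21 (SE, adjusted p = 2.25e-06), and against late pre-hibernation it was 1.52 ± 0.21 (adjusted p = 9.65e-06). With the rRNA-rich libraries left out the values were 1.61 and 1.49. No call was lost when any library of either pair was left out. Refractory animals had the lowest mean, 8.12 ± 3.48 CPM (SD, n = 6), or 9.27 ± 2.31 without refractory 4, against 11.7 ± 1.7 CPM in long photoperiod. That last difference, -0.45 ± 0.21 on the log2 scale (SE, adjusted p = 0.356), did not pass.

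Neither relative passed as higher in torpor. Dnajb1 ran from 25.5 to 35.8 CPM in torpor (median 32.8), from 36.1 to 53.5 CPM in interbout euthermia (median 38.7) and from 37.3 to 66.1 CPM in late pre-hibernation (median 42.9). All 6 torpor animals were below all animals of both warm groups. Its log2 fold change was -0.52 ± 0.15 (SE, adjusted p = 0.0313) against late pre-hibernation and -0.36 ± 0.15 (adjusted p = 0.204) against interbout euthermia. Both passed without the rRNA-rich libraries, at -0.54 (adjusted p = 0.000665) and -0.41 (adjusted p = 0.018). The call against late pre-hibernation was lost in 6 of 12 fits that each left out 1 library, with a highest adjusted p of 0.136, without late pre-hibernation 2. Dnajb4 averaged 109.0 ± 12.8 CPM in torpor and 112.4 ± 14.0 CPM in interbout euthermia (SD, n = 6). On the scale of CPM per kb of exon, which allows genes to be compared, Dnajb5 stood at 0.16 ± 0.02 of Dnajb1 in long photoperiod, 0.19 ± 0.05 in interbout euthermia and 0.74 ± 0.19 in torpor (SD, n = 6 each). The lowest torpor ratio was 0.458, and in the highest torpor animal, at 1.06, Dnajb5 was above Dnajb1.

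Dnajb14 encodes a J-protein of the endoplasmic reticulum membrane that takes part in the disposal of misfolded proteins. It ran from 9.42 to 11.1 CPM in torpor (median 10.2), from 13.0 to 32.2 CPM in interbout euthermia (median 15.0) and from 11.9 to 20.3 CPM in late pre-hibernation (median 17.2). Torpor was the tightest group and lay wholly below both others. Dnajb14 differed on the log2 scale by -0.76 ± 0.19 (SE, adjusted p = 0.013) against interbout euthermia and -0.71 ± 0.19 (adjusted p = 0.0187) against late pre-hibernation. The rRNA-rich libraries held the highest value of the gene in their 3 groups, and without them the values were -0.51 (adjusted p = 0.00651) and -0.73 (adjusted p = 5.09e-05). Leaving out interbout euthermia 6 alone gave an adjusted p of 0.0731.

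Dnajc17, a nuclear J-protein with an RNA-binding motif, ran from 38.1 to 55.8 CPM in torpor (median 44.4), from 29.03 to 35.7 CPM in interbout euthermia (median 31.5) and from 30.8 to 39.4 CPM in late pre-hibernation (median 35.7). Torpor lay wholly above interbout euthermia and overlapped late pre-hibernation. Its log2 fold changes were 0.47 ± 0.10 (SE, adjusted p = 0.00231) and 0.34 ± 0.10 (adjusted p = 0.0327). The first call was kept in all 12 fits that each left out 1 library, and the second was lost in 8 of 12.

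**Figure D3:**
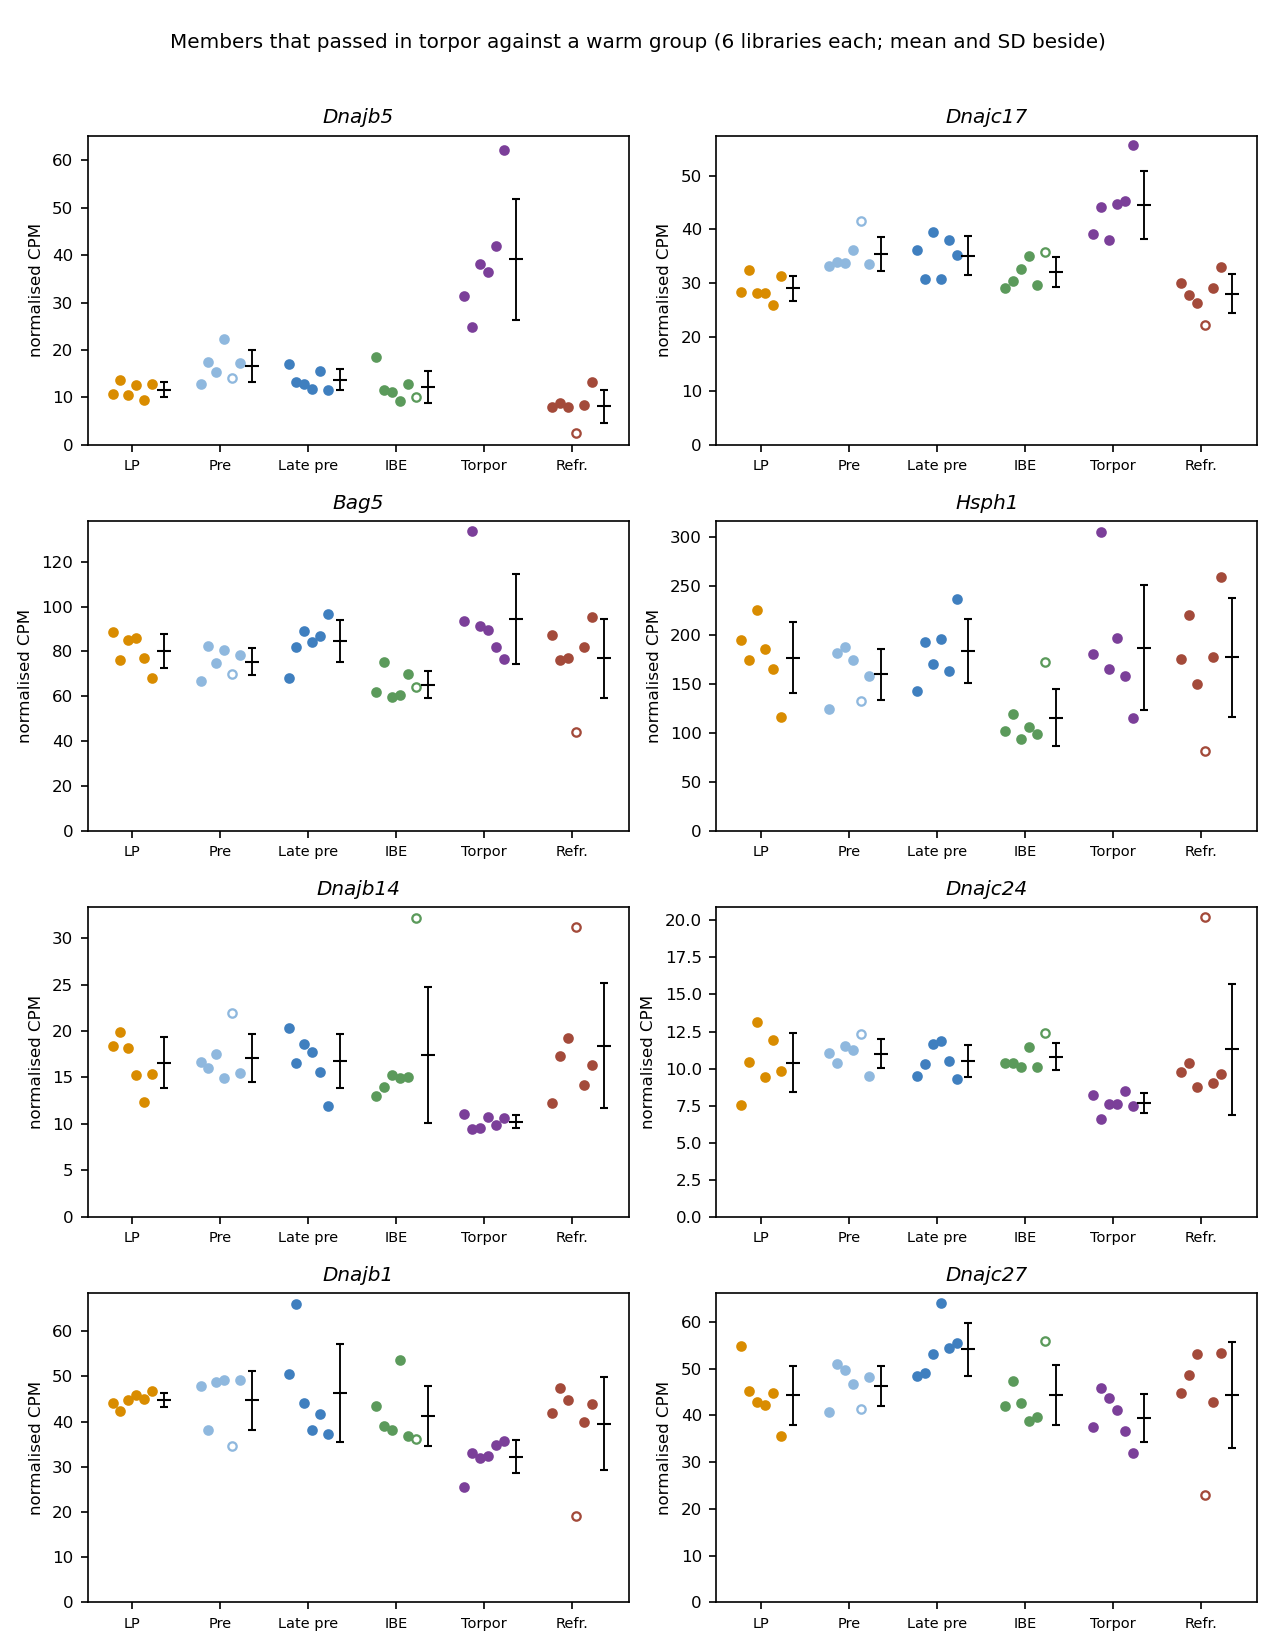
Level of 8 of the chaperone genes described for torpor (CPM scaled with TMM factors) in every library, by group, with the group mean and SD beside the 6 points. Bag4 is not drawn. Open circles are the rRNA-rich libraries. Dnajb5, Dnajc17 and Bag5 are above interbout euthermia in all 6 torpor libraries, and Dnajb14, Dnajc24 and Dnajb1 are below it in all 6. Hsph1 is low in interbout euthermia rather than high in torpor.

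Among the factors that reset HSP70, Bag5 and Hsph1 were higher in torpor than in interbout euthermia. For both the interbout euthermia group had the lowest mean, with and without the rRNA-rich libraries. Bag5, whose several BAG domains bind HSP70, ran from 76.5 to 133.5 CPM in torpor (median 90.5) and from 59.5 to 75.1 CPM in interbout euthermia (median 62.9), without overlap. Its log2 fold change was 0.54 ± 0.13 (SE, adjusted p = 0.00885), and 0.41 (adjusted p = 0.0645) without torpor 2. Against late pre-hibernation, at 68.2 to 96.8 CPM, Bag5 did not pass.

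Hsph1, the HSP110 of the cytosol, ran from 114.8 to 304.3 CPM in torpor (median 172.9) and from 93.9 to 172.2 CPM in interbout euthermia (median 103.6). The groups overlapped, with 3 torpor animals above all interbout euthermia animals. The log2 difference was 0.70 ± 0.21 (SE, adjusted p = 0.0447), and 10 of 12 fits that each left out 1 library lost the call. The highest interbout euthermia value was that of the rRNA-rich replicate 6, and the other 5 lay between 93.9 and 118.9 CPM. Leaving out the rRNA-rich libraries gave 0.83 ± 0.18 (adjusted p = 0.00243), and Hsph1 was then also higher in the refractory group than in interbout euthermia, by 0.92 ± 0.19 (adjusted p = 0.00761). Against late pre-hibernation, torpor differed by 0.02 ± 0.21 (SE, adjusted p = 0.983).

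Bag5, Hsph1 and Dnajc19 shared their extremes within torpor: replicate 2 was the highest and replicate 6 the lowest for each. Dnajb5 had the reverse order, lowest in replicate 2 and highest in replicate 6. The summed neuron markers of torpor 2 were the lowest of its group, at 344.9 CPM against a median of 421.4, and the highest were those of torpor 4, at 649.6 CPM. Tanycyte markers were highest in torpor 2 at 3436 CPM and lowest in torpor 4 at 1928 CPM. Ependymal cilia, astrocyte, microglia, pituitary, and endothelial and mural markers were lowest in torpor 6, and none of these was highest in torpor 2. The part of the markers in these values was not tested.

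Of the remaining genes, Dnajc24 takes part in making diphthamide, a modified residue of elongation factor eEF2. It ran from 6.60 to 8.49 CPM in torpor and from 10.1 to 12.4 CPM in interbout euthermia, without overlap. Its log2 fold change was -0.49 ± 0.15 (SE, adjusted p = 0.05, just under the threshold before rounding), and 10 of 12 fits that each left out 1 library lost the call. Exons of Immp1l cover 350 bp of Dnajc24 (6.03% of its exon length), and counting did not use strand. Dnajc27, which carries a Rab-like GTPase domain, ran from 31.9 to 45.9 CPM in torpor and from 48.5 to 64.1 CPM in late pre-hibernation, a log2 fold change of -0.45 ± 0.13 (SE, adjusted p = 0.0381). Bag4 differed by -0.32 ± 0.09 (SE, adjusted p = 0.0398) between the same groups, at means of 21.6 and 27.1 CPM. The Dnajc27 call was lost in 10 and the Bag4 call in 8 of 12 fits that each left out 1 library. Without the rRNA-rich libraries Dnajc24 passed against interbout euthermia at -0.46 (adjusted p = 0.00332), beside 8.94% of all genes. Against late pre-hibernation Dnajc27 then passed at -0.47 (adjusted p = 0.000771) and Bag4 at -0.34 (adjusted p = 0.00322), beside 13.4% of all genes.

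The largest differences that missed the threshold in torpor against interbout euthermia were those of Dnajb3, at -1.02 ± 0.35 (log2, SE, adjusted p = 0.1), and Dnajc21, at -1.01 ± 0.38 (adjusted p = 0.151). Both rested on interbout euthermia 6, which held 4.00 CPM of Dnajb3 and 17.3 CPM of Dnajc21 beside group medians of 1.20 and 3.78 CPM. When the rRNA-rich libraries were left out they were -0.58 and -0.41, with adjusted p of 0.25 and 0.329. In that fit 11 of the 79 genes passed against interbout euthermia (8.94% of all genes), among them the 6 above. The 5 added were Dnajc19 (0.61, adjusted p = 0.0184), Dnajc2 (0.45, adjusted p = 0.0455), Bag2 (0.28, adjusted p = 0.0355), Dnajc28 (-0.60, adjusted p = 0.0269) and Dnajb1. Against late pre-hibernation 17 passed, 10 higher and 7 lower in torpor, beside 13.4% of all genes. Among the higher were Hspa2 at 0.50 ± 0.11 (SE, adjusted p = 0.00225), Hspb8 at 0.32 ± 0.10 (adjusted p = 0.0334) and its partner Bag3 at 0.29 ± 0.10 (adjusted p = 0.0458). Among the lower were Dnajc28 at -0.60 ± 0.17 (adjusted p = 0.0148) and Dnajc13 at -0.53 ± 0.12 (adjusted p = 0.00286).

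**Figure D4:**
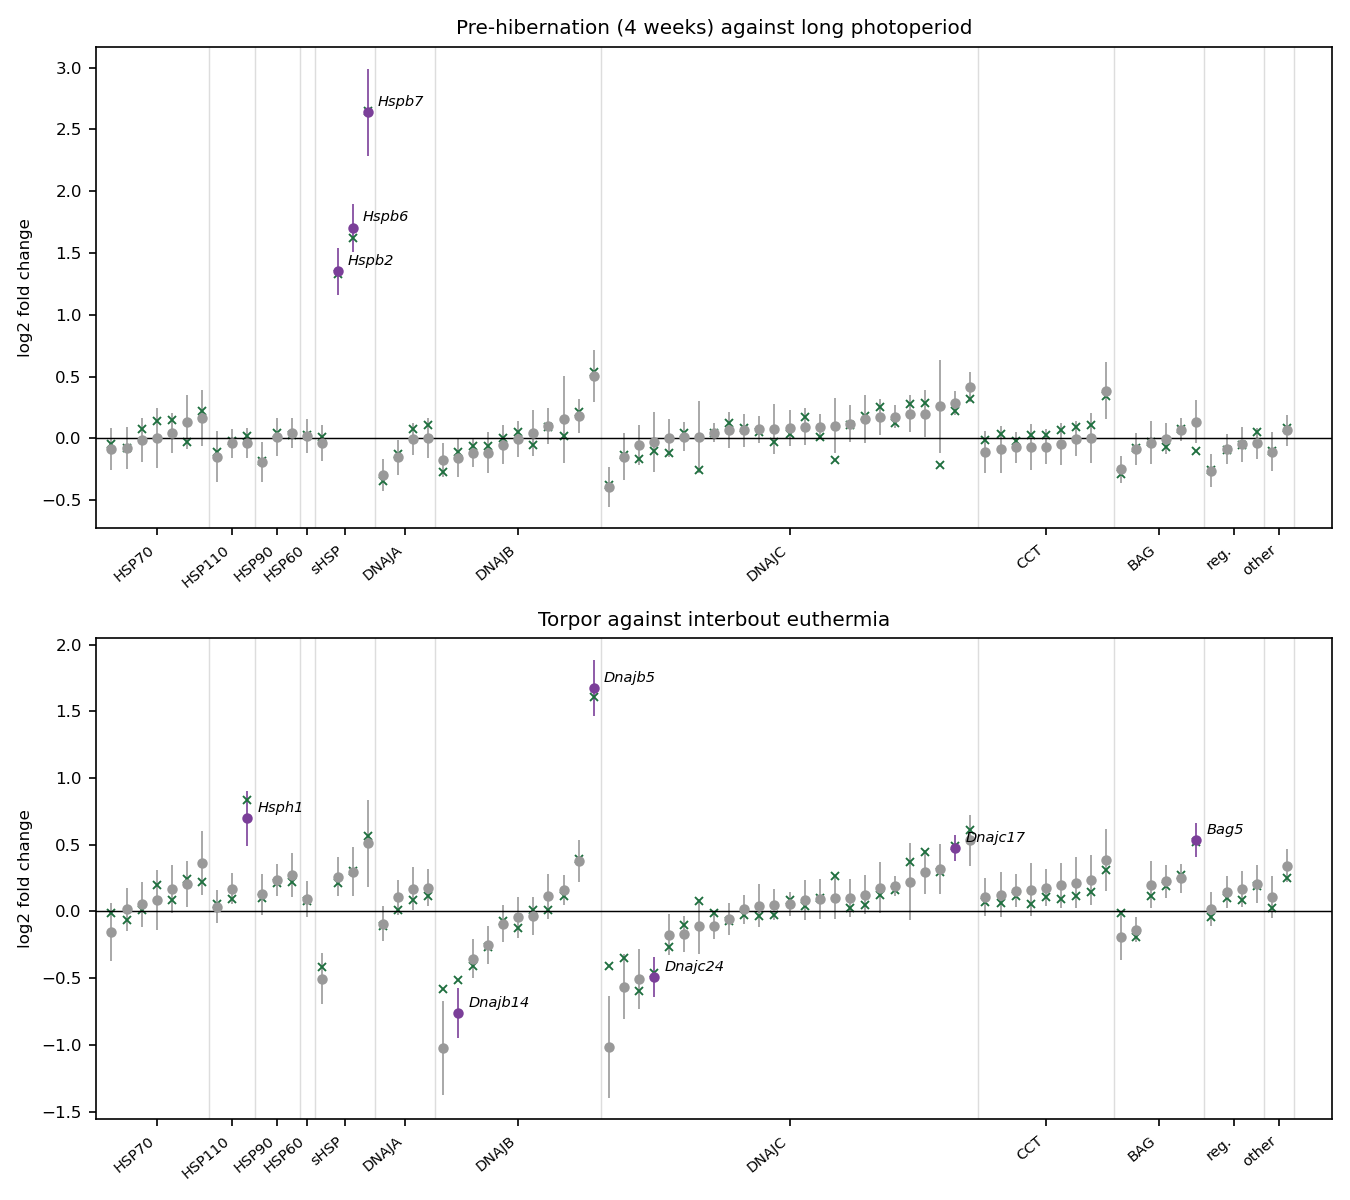
Log2 fold change of each of the 79 chaperone genes, ordered by family (sHSP is small heat shock proteins, reg. is Hsf1, Stip1, Ahsa1 and Hspbp1, other is Hspb11 and Hspbap1), for pre-hibernation against long photoperiod (top) and torpor against interbout euthermia (bottom). Circles and bars are the estimate and its SE from all 36 libraries, purple where adjusted p was under 0.05, and crosses are the estimate without the 3 rRNA-rich libraries.

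The most abundant chaperones did not pass in any comparison with all libraries. Per kb of exon, Hspa8, the constitutive HSP70 of the cytosol, was the most abundant at a mean of 1048 CPM per kb, followed by Hsp90aa1 at 883.9 and Hsp90ab1 at 760.9. The least abundant were Dnajc25 at 0.643, Dnajc28 at 1.095 and Dnajb3 at 1.11 CPM per kb. Hspa8 ran from 2041 to 3048 CPM in torpor (median 2316) and from 2102 to 2659 CPM in interbout euthermia (median 2271). None of the 7 HSP70 genes passed in any of the 7 comparisons with all libraries. Their log2 fold changes in torpor against interbout euthermia lay between -0.16 and 0.37, the highest being Hspa2, an HSP70 best known from the testis.

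Hspa2 averaged 757.5 ± 125.3 CPM in long photoperiod, 826.2 ± 116.1 in late pre-hibernation, 913.8 ± 225.8 in interbout euthermia and 1177 ± 210 in torpor (SD, n = 6 each). Interbout euthermia 6 was at 474.9 CPM, and without it that group stood at 1002 ± 77 CPM. Per kb, Hspa8 was 3.90 ± 0.60 times Hspa2 in long photoperiod and 2.26 ± 0.47 times in torpor (SD, n = 6), and these ranges, 3.41 to 5.07 and 1.53 to 2.80, did not overlap. Hspa5 (BiP), the HSP70 of the endoplasmic reticulum, stood at 945.3 ± 199.8 CPM in torpor and 818.4 ± 100.1 CPM in interbout euthermia (SD, n = 6), a log2 fold change of 0.21 ± 0.17 (SE, adjusted p = 0.643). Of 10 genes that act in the endoplasmic reticulum, among them Hsp90b1, Dnajb9, Dnajb11, Dnajc3 and Dnajc10, only Dnajb14 passed in that comparison.

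The 3 HSP90 genes summed to 5639 ± 637 CPM in torpor, 4787 ± 333 in interbout euthermia and 5372 ± 227 in long photoperiod (SD, n = 6), and their single log2 fold changes in torpor against interbout euthermia were 0.13 to 0.27, with none called. Hsp90aa1, the stress-inducible isoform, ran from 2082 to 3501 CPM in torpor and from 1890 to 2485 CPM in interbout euthermia, overlapping, at 0.27 ± 0.17 (SE, adjusted p = 0.467). Hsf1, the main regulator of the heat shock response, had group means between 65.7 and 69.8 CPM, and the adjusted p over the 6 groups was 0.992.

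The 8 CCT subunits (Tcp1, Cct2, Cct3, Cct4, Cct5, Cct6a, Cct7 and Cct8) form 1 complex, and none of them passed in any comparison. Summed over the 8 genes, long photoperiod stood at 2517 ± 218 CPM, pre-hibernation at 2413 ± 495, late pre-hibernation at 2519 ± 178, interbout euthermia at 2344 ± 276, torpor at 2644 ± 263 and the refractory group at 2141 ± 660 (SD, n = 6 each). Over the libraries that are not rRNA-rich, the pre-hibernation, interbout euthermia and refractory means were 2599, 2448 and 2407 CPM, so the low refractory mean came with refractory 4, at 815.7 CPM. In torpor against interbout euthermia all 8 log2 fold changes were positive, from 0.11 to 0.24, or 0.06 to 0.15 without the rRNA-rich libraries, and none passed (lowest adjusted p = 0.617). Per kb, Cct7 was the highest at a mean of 197.3 CPM per kb and Cct2 the lowest at 99.2. The group means of Cct7's share of the summed CPM per kb lay between 15.8% and 16.6%, and those of Cct2's share between 8.08% and 8.59%. Cct6b, a relative of Cct6a known from the testis, averaged 3.85 CPM.

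**Figure D5:**
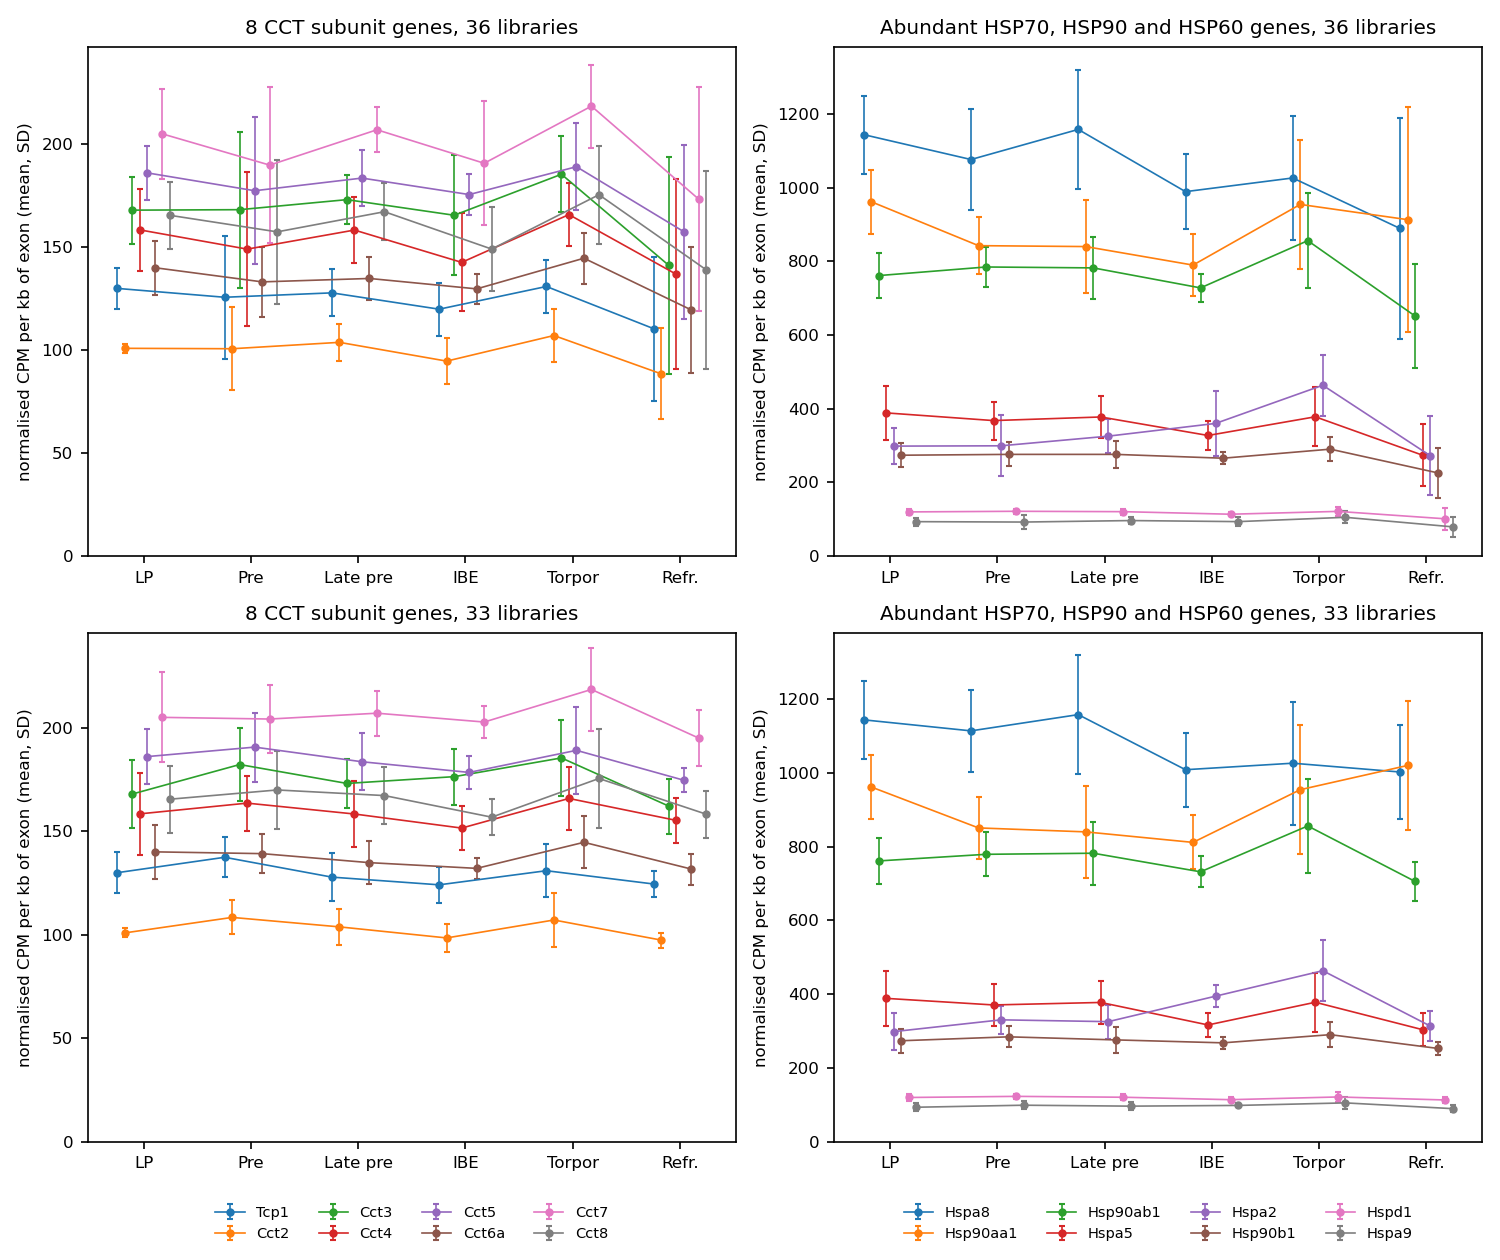
Mean and SD of CPM per kb of exon by group for the 8 CCT subunit genes (left) and 8 abundant HSP70, HSP90 and HSP60 genes (right), over all 36 libraries (top, n = 6 a group) and over the 33 that are not rRNA-rich (bottom, n = 5 in pre-hibernation, interbout euthermia and refractory). The drop in the refractory group and its wide bars at the top are much smaller at the bottom, and Hspa2 is the one gene at the right whose torpor mean stands well above its long photoperiod mean.

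The mitochondrial chaperones, among them Hspd1 (HSP60), Hspa9 (mortalin) and Dnaja3, gave 0 called genes of 7 in torpor against interbout euthermia with edgeR, with all 7 log2 fold changes positive, from 0.06 to 0.53. Hspd1 stood at 294.9 ± 30.4 CPM in torpor and 276.2 ± 14.0 CPM in interbout euthermia (SD, n = 6). Dnajc19 had the widest difference of the 7, at means of 40.7 ± 11.1 and 28.2 ± 4.8 CPM (SD, n = 6).

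None of the 4 DNAJA genes passed in any comparison with all libraries. Dnaja1, the most abundant of them per kb, averaged 415.8 ± 34.9 CPM in torpor and 367.3 ± 35.5 CPM in interbout euthermia (SD, n = 6), a log2 fold change of 0.18 ± 0.14 (SE, adjusted p = 0.612). Dnaja4 had a log2 fold change of -0.30 ± 0.13 in pre-hibernation against long photoperiod (SE, adjusted p = 0.307). Dnajb2, a neuronal J-protein that delivers ubiquitinated clients to the proteasome, averaged 154.6 ± 42.4 CPM in torpor and 118.8 ± 12.9 CPM in interbout euthermia (SD, n = 6), and did not pass at 0.38 ± 0.16 (SE, adjusted p = 0.216). Dnajb6, which holds back the aggregation of polyglutamine proteins, differed by 0.25 ± 0.11 between torpor and late pre-hibernation (SE, adjusted p = 0.245), and passed without the rRNA-rich libraries at 0.24 ± 0.07 (adjusted p = 0.0178). Dnajc5, the cysteine string protein of synaptic vesicles, averaged 146.7 ± 15.0 CPM in long photoperiod and 179.0 ± 24.6 CPM in torpor (SD, n = 6), and no comparison of it passed.

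Over the 11 DNAJB genes the median log2 fold change in torpor against interbout euthermia was -0.04, with Dnajb5 called higher and Dnajb14 called lower. Over the 25 DNAJC genes it was 0.06, with Dnajc17 called higher and Dnajc24 called lower. Dnajc18 passed in the test over the 6 groups alone (adjusted p = 0.0478). It was highest in torpor, at 39.8 ± 7.4 CPM, and lowest in the refractory group, at 22.4 ± 9.0 CPM (SD, n = 6), and 30 of 36 fits that each left out 1 library lost the call. Dnajb13, a J-protein of motile cilia and sperm tails, averaged 195.1 ± 13.7 CPM in torpor and 180.4 ± 33.1 CPM in interbout euthermia (SD, n = 6), a log2 fold change of 0.11 ± 0.17 (SE, adjusted p = 0.831).

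The other 2 HSP110 genes did not follow Hsph1. Hspa4 averaged 45.5 ± 6.6 CPM in torpor and 44.4 ± 5.6 CPM in interbout euthermia (SD, n = 6), and Hspa4l 178.5 ± 10.2 and 158.5 ± 22.6 CPM, with adjusted p of 0.941 and 0.545.

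Of the 6 BAG genes, Bag5 and Bag4 are described above and the other 4 did not pass with all libraries. Bag3, the partner of Hspb8 in selective autophagy, averaged 126.2 ± 15.6 CPM in torpor and 109.7 ± 16.2 CPM in interbout euthermia (SD, n = 6), a log2 fold change of 0.20 ± 0.17 (SE, adjusted p = 0.66). Bag1, which links HSP70 to the proteasome, averaged 68.3 ± 6.3 and 58.3 ± 9.0 CPM, at 0.23 ± 0.12 (SE, adjusted p = 0.403). Bag2, an inhibitor of the ubiquitin ligase CHIP, averaged 27.3 ± 2.3 CPM in long photoperiod, 22.7 ± 2.1 CPM in late pre-hibernation, 22.8 ± 2.7 CPM in interbout euthermia and 27.03 ± 2.4 CPM in torpor (SD, n = 6 each). Its differences between pre-hibernation and long photoperiod and between torpor and the 2 warm groups passed only without the rRNA-rich libraries. Exons of Znf451 cover 109 bp of Bag2, and counting did not use strand. Stip1 (Hop), which hands clients from HSP70 to HSP90, averaged 273.1 ± 30.7 CPM in torpor and 247.0 ± 26.3 CPM in interbout euthermia (SD, n = 6), with an adjusted p of 0.65.

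How tightly a gene was held within its group differed widely. The median coefficient of variation within a group (the SD over the mean) was lowest for Dnajc7, at 4.90%, and Ahsa1, at 4.97%. It was highest for Dnajc21, at 29.4%, Dnajb3, at 28.6%, and Hspb2, at 25.1%. Dnajb3 and Dnajc21 are among the least abundant of the 79, while Hspb2 is not.

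Counted over all 79 genes, 58 had a positive log2 fold change in torpor against interbout euthermia. The median was 0.125, against 0.013 over all genes tested, or 0.086 against 0.004 with the rRNA-rich libraries left out, when 55 were positive. With RLE scaling the medians were 0.124 and 0.012, and 4 genes were called higher and 1 lower, Dnajc24 no longer passing. The torpor mean was the highest of the 6 group means for 39 of the 79 genes (49.4%, against 21.3% of all genes tested), or 30 (37.97%, against 23.3%) without the rRNA-rich libraries. The refractory mean was the lowest for 42 of the 79 (53.2%, against 23.7%), but for 23 (29.1%, against 19.0%) without them. No test was made on the 79 genes together. The libraries of torpor and interbout euthermia did not overlap for 6 of the 79 genes: Dnajb5, Bag5, Dnajc17, Dnajb14, Dnajc24 and Dnajb1. Over all genes tested, 3.94% had no overlap.

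Refractory against interbout euthermia gave 2 called genes of 79, 2.53% beside 3.5% of all genes tested. These were Hspb6, described above, and Dnajc4, at 11.3 to 22.4 CPM against 23.6 to 28.8 CPM, with a log2 fold change of -0.42 ± 0.12 (SE, adjusted p = 0.0483). Dnajc4 was lost without the rRNA-rich libraries (-0.33, adjusted p = 0.0706) and in 9 of 12 fits that each left out 1 library. Refractory against long photoperiod gave 0 called genes with edgeR, beside 0.329% of all genes tested. At an unadjusted p under 0.05 there were 10 of 79, beside 13% of all genes, with 1 for DESeq2 (1.84% of all genes) and 1 for limma voom (1.04%).

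Genes were also counted from lists of textbook members. Of 22 heat shock factor 1 targets, 19 were tested. All 19 are among the 79 chaperone genes, so their calls repeat those given above. In torpor against interbout euthermia 1 was higher (Hsph1) and 0 were lower, beside 4.06% of all genes tested. The median log2 fold change was 0.171, against 0.013 over all genes. Without the rRNA-rich libraries 1 was higher and 1 lower, beside 8.94% of all genes, and the medians were 0.099 and 0.004. Against late pre-hibernation 0 were higher and 1 was lower (Dnajb1), beside 4.45% of all genes. Without the rRNA-rich libraries 2 were higher and 1 lower, beside 13.4%. In pre-hibernation against long photoperiod 0 of 19 passed, beside 2.29% of all genes. Without the rRNA-rich libraries 0 were higher and 1 lower there, beside 6.37%. Of 56 other genes of protein folding that are not among the 79, 52 were tested. In pre-hibernation 3 were higher and 0 lower than in long photoperiod, beside 2.29% of all genes: Cryab, Hspb1 and Hsf2. Without the rRNA-rich libraries 3 were higher and 1 lower, beside 6.37%. Hsf2, a second heat shock factor, averaged 46.01 ± 3.4 CPM in long photoperiod and 92.6 ± 14.3 CPM in pre-hibernation (SD, n = 6), a log2 fold change of 1.01 ± 0.14 (SE, adjusted p = 1.54e-05). None of the 20 genes of the endoplasmic reticulum, 14 HSP90 cochaperones, 7 mitochondrial genes and 6 prefoldin genes on that list passed in any of the 7 comparisons with all libraries. In torpor against interbout euthermia 0 of the 52 passed with edgeR, beside 4.06% of all genes. Without the rRNA-rich libraries 4 were higher and 2 lower, beside 8.94%.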

How the data were processed

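The deposited values are the authors' raw counts of read pairs per gene, with 1 table for each of the libraries. As the file headers state, pairs were counted over RefSeq exons of assembly BCM_Maur_2.0 with featureCounts 2.0.1, paired-end and without strand, so reads of overlapping genes cannot be told apart, and the sources used here do not give the aligner's version. All 36 libraries, grouped by their titles, were fitted in 1 robust quasi-likelihood model with edgeR 4.0.16 in R 4.3.3 (TMM factors, filterByExpr, 17926 genes). Adjusted p values are Benjamini-Hochberg over all genes tested, with a threshold of 0.05, and come from this fit unless another tool is named. The SE of an edgeR log2 fold change was derived from the test, as its absolute value over the square root of the F statistic. Replicates are separate animals per the labels. CPM per kb divides by the exon length in the deposited count tables. The shallowest library, with 5161108 counts, limits low genes most. No sequences are printed, since none were used here.

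Alternatives were RLE factors, DESeq2 1.42.0, limma 3.58.1 (voom with quality weights), other filters, the replicate number as a block, leaving out rRNA-rich libraries, ribosomal RNA and mitochondrial genes or each library in turn, the compared groups alone, and long photoperiod 1 to 3 or 4 to 6 alone. Leaving out late pre-hibernation 4 as well was chosen after seeing the data. The members and lists were chosen with earlier results of these data known. Genes named are those called in any pairwise comparison, a fixed list, the 3 highest and 3 lowest per kb, the 5 largest differences in torpor against interbout euthermia, and the genes nearest the level of 1 CPM. Other genes were named to complete a family or after their values were seen. The scripts were tested on simulated data. Figures used Python 3.11.15, pandas 2.3.3 and matplotlib 3.10.9.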

Additional observations from a re-analysis of the deposited data

Results flagged for a closer look

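Within groups, 20 genes named above were searched for a library far from the other 5 of its group (its gap to the nearest of them, over the range of the group, above Dixon's critical value for 6 samples). Of 120 groups, 16 had one, or 13.3%, where chance gives about 1 in 20 for a single group. The 20 genes share the same libraries, so the 120 are not independent and these rates were not tested against each other. Refractory 4, the library with the most ribosomal RNA, accounted for 8 of them. There Dnajb14 (31.2 CPM, the others 12.2 to 19.3) and Dnajc24 (20.2 CPM, the others 8.76 to 10.4) were high. In the same library Dnajb1 (19.2 CPM), Dnajc27 (22.9 CPM), Hspa8 (761.9 CPM), Hspa2 (169.9 CPM), Hsp90ab1 (968.2 CPM) and Hsp90b1 (252.8 CPM) lay below all other refractory animals.

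Interbout euthermia 6, also rRNA-rich, stood apart in Dnajb14 (32.2 CPM, the others 13.0 to 15.2), Hsph1 (172.2 CPM, the others 93.9 to 118.9) and Hspa2 (474.9 CPM, the others 898.6 to 1070). Pre-hibernation 5, also rRNA-rich, did so in Dnajb14 (21.9 CPM, the others 14.9 to 17.5) and Dnajc17 (41.6 CPM, the others 33.3 to 36.2). In libraries that are not rRNA-rich, Bag5 was high in torpor 2 (133.5 CPM, the others 76.5 to 93.7), Hspb2 was high in refractory 6 (95.3 CPM, the others 45.2 to 60.7) and Hspa5 was low in late pre-hibernation 4 (658.0 CPM, the others 938.9 to 1050).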

How the results depend on the processing

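No gene test followed under the alternatives changed direction, but small differences outside these tests did. Hspb8 in pre-hibernation against long photoperiod had a log2 fold change of -0.036 with all libraries and 0.012 without the rRNA-rich ones. Of 819 values for single genes under an alternative, 657 stayed on their side of the threshold, 154 fell short of it and 8 newly passed it. The number of chaperone genes called, in the order pre-hibernation against long photoperiod, interbout euthermia against late pre-hibernation, torpor first against interbout euthermia and then against late pre-hibernation, refractory first against interbout euthermia and then against long photoperiod, and any group, was 3, 0, 6, 6, 2, 0 and 9. With limma voom and quality weights it was 11, 5, 11, 20, 9, 1 and 36, and without the rRNA-rich libraries 7, 2, 11, 17, 2, 0 and 26. With DESeq2 it was 4, 0, 7, 8, 6, 1 and 17, and with only the groups compared 5, 0, 5, 11, 1 and 0 for the 6 pairs. RLE factors gave 1 for each refractory comparison, and a filter of 1 CPM, or removal of ribosomal RNA and mitochondrial genes, 1 for refractory against interbout euthermia. With no filter beyond 1 count, torpor against late pre-hibernation gave 2. Without the rRNA-rich libraries and late pre-hibernation 4, the counts were 1 for interbout euthermia against late pre-hibernation, 15 for torpor against late pre-hibernation and 29 for any group. The causes were not tested. Late pre-hibernation against pre-hibernation gave 0 in every fit. Over all genes the main fit called 2.29%, 0%, 4.06%, 4.45%, 3.5%, 0.329% and 14.6%, in the same order. Counts given here or below without a share of all genes do not show whether the chaperone genes differed from the rest.

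Leaving out each library in turn gave 3 to 3 genes for pre-hibernation against long photoperiod, 0 to 0 for late pre-hibernation against pre-hibernation and for interbout euthermia against late pre-hibernation, 3 to 6 for torpor against interbout euthermia (3 without torpor 2), 1 to 5 for torpor against late pre-hibernation, 1 to 5 for refractory against interbout euthermia (5 without refractory 6), 0 to 1 for refractory against long photoperiod (1 without refractory 1 or 5) and 6 to 19 for any group (19 without refractory 4). Torpor against late pre-hibernation gave 1 without late pre-hibernation 1, 2 without late pre-hibernation 2 or torpor 4, and 3 without late pre-hibernation 4, torpor 1 or torpor 2. Refractory against interbout euthermia gave 1 without interbout euthermia 1, 3, 4 or 5 or refractory 1 or 2.

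Replicate numbers did not pair the animals: over 90 same-numbered pairs the correlation of deviations had a median of 0.008 (-0.338 to 0.481), and 5 of 36 libraries matched their own number best. With the replicate block the counts were 3, 0, 4, 3, 1, 0 and 7. Depth limits genes near 1 CPM, such as Dnajb3, most.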
